A study of Homo sapiens with 38 samples.

Results

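The genes described are 10 ligands and receptors of the tumour necrosis factor (TNF) superfamily: the ligands CD40LG, CD70, FASLG and TNFSF4 and the receptors CD27, FAS, TNFRSF1B, TNFRSF4, TNFRSF9 and TNFRSF18. They are 10 of 20046 protein-coding gene records of RefSeq. For each gene, every peak of 3 deposited lists that overlapped the gene record or the 50 kb on either side of it, called its window, was taken. The windows held 266 of the 168784 peaks of the lists, made up of 52 of 29009 for GATA3, 68 of 26205 for BHLHE40 and 146 of 113570 for the histone mark H3K27ac. The records of TNFRSF4 and TNFRSF18 lie side by side, so their windows share 1 GATA3, 5 BHLHE40 and 7 H3K27ac peaks. These are counted for each gene and once in the sums.

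The assay was ChIP-seq, chromatin immunoprecipitation followed by sequencing: an antibody enriches the DNA that carries its target, and stretches where reads pile up are listed as peaks. All cells were Jurkat, an established human line from a T-cell acute lymphoblastic leukaemia (T-ALL). The labels put 38 samples into 19 groups of 2, and 3 of these groups are used: the control lentivirus (Ctrl_LV) with an antibody against GATA3, BHLHE40 or H3K27ac. With the remaining 16 groups not analysed here, no effect of base editing or of BHLHE40 over-expression can be given. Every cell used here thus carried a control lentivirus and had received 50 ng/ml PMA together with 500 ng/ml ionomycin, a pair of agents that mimics signals of the T-cell receptor. The stimulation is given as 5 hours in the sample labels and as 2 hours in the protocol, and no unstimulated cells were set beside them. Per the labels' protocols, transduced cells were selected with puromycin. A list covers the 2 samples of a group jointly, so no value has a spread between samples, no test was run, and the depth is unknown.

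Ligands of the TNF superfamily are mostly membrane-bound trimers that cluster their receptors on a neighbouring cell. Receptors with a death domain, such as FAS, can start apoptosis, whereas costimulatory receptors recruit TRAF adaptors and activate NF-kB. Several ligands and receptors of the family are switched on in T cells after antigen recognition. GATA3 is a zinc-finger factor of T-cell development, BHLHE40 is a basic helix-loop-helix factor induced by T-cell activation, and H3K27ac marks active promoters and enhancers.

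Promoter sequences show which bases lay under the peaks. RefSeq's promoter table (GRCh38.p14) held 7 of the 10 genes and had no entry for CD40LG, CD70 and TNFRSF4. No gene had both factors at its entry in this table, so 4 promoters were chosen after their values were seen: FASLG, CD27 and the first of 3 entries of FAS, where a BHLHE40 summit fell inside the bases shown, and TNFSF4, with H3K27ac alone. The promoters of TNFRSF18, TNFRSF1B and TNFRSF9 are shown beside them because they were the ones of the 7 genes that no peak of the 3 lists touched. Each is the 250 bases before the gene start, 5′ to 3′ on the gene's strand. Capitals mark matches, on either strand, to the motifs TGANTCA and GGAAA.
FASLG, chr1:172658853-172659102, plus strand: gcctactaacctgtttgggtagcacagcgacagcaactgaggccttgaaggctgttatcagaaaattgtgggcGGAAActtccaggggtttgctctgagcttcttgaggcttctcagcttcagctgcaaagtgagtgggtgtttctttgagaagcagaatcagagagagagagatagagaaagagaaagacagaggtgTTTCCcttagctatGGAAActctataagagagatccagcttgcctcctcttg
CD27, chr12:6443642-6443891, plus strand: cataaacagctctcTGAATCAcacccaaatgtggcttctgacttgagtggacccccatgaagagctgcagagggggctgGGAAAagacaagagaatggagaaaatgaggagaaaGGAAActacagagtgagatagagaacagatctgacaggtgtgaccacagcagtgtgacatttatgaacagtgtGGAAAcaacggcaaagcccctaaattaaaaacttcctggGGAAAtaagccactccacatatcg
FAS, chr10:88990548-88990797, plus strand: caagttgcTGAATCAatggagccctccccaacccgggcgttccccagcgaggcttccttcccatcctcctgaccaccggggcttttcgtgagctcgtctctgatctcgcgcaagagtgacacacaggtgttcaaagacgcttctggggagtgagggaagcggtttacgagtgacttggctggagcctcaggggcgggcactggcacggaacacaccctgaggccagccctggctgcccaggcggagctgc
TNFSF4, chr1:173205533-173205782, minus strand: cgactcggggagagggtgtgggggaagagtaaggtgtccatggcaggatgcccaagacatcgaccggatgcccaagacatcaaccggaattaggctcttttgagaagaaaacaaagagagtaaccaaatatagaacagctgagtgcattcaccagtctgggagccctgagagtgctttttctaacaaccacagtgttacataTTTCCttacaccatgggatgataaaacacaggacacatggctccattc
TNFRSF18, chr1:1206593-1206842, minus strand: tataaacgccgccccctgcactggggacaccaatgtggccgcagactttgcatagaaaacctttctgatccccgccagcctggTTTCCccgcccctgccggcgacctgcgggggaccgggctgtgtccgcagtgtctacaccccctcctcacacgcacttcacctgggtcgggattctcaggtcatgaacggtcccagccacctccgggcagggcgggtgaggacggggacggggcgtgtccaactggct
TNFRSF1B, chr1:12166741-12166990, plus strand: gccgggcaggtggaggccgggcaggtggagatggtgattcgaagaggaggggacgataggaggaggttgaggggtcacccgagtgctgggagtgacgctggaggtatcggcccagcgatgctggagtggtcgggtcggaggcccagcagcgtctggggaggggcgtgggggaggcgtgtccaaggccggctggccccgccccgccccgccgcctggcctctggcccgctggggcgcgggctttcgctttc
TNFRSF9, chr1:7940840-7941089, minus strand: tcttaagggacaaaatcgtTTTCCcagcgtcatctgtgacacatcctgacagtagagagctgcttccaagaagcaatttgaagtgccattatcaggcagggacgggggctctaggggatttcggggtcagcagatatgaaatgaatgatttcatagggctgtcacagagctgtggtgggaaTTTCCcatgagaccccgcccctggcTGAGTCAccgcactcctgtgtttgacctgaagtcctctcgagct

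The BHLHE40 summit lay at base 109 of the 250 in FASLG, at base 49 in CD27 and at base 139 in FAS. The letters CACGTG, the E-box form that BHLHE40 is known to bind, were in none of the entries of the 7 genes, and neither was AGATAA, a core motif of GATA factors. No other form of either motif was searched, so other forms may be present. Among all 35116 entries of the table, 6.34% held CACGTG and 9.17% held AGATAA in the same 250 bases. TGANTCA, which covers the AP-1 motif but takes any base in the middle, was found in 6.57% of all entries. A match is thus not always the AP-1 motif itself. It was in those of CD27, FAS (its first entry only) and TNFRSF9, at 236, 242 and 44 bases before the start. The match was TGAATCA in CD27 and FAS and TGAGTCA in TNFRSF9. GGAAA, the short core that NFAT proteins bind, was in 55.6% of all entries. CD27 had 4 such matches, FASLG 3, TNFRSF9 2, and TNFSF4 and TNFRSF18 had 1 each. Promoters differed in base composition, with 46.0% G and C bases in CD27, 47.6% in FASLG and 48.0% in TNFSF4, 51.6% in TNFRSF9, and 62.8% in FAS, 65.6% in TNFRSF18 and 72.4% in TNFRSF1B. The median of the whole table was 58.0%. A match of letters is a description of the sequence and shows no binding site.

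The cell type was checked against marker genes. All 10 T-cell markers examined, among them CD3E, LCK and ZAP70, had an H3K27ac peak at the promoter, as did 1 of 5 B-cell markers (BLK), 0 of 5 myeloid and 0 of 4 erythroid markers. Over all protein-coding genes the share with such a peak was 50.6%. The median signal value, the authors' measure of enrichment of a peak, was 11.2 in the GATA3 list, 9.35 in the BHLHE40 list and 3.31 in the H3K27ac list. Values and ranks are used only within a list. The H3K27ac list was pooled over both samples, with no stated threshold on repeatability, and a −log10 q-value of at least 5 was reached by 28551 of its 113570 peaks.

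Peaks of both factors were concentrated around CD40LG and FASLG. Each of the 10 windows held at least 1 peak of every list, where 76.1% of all protein-coding genes had a GATA3 peak, 80.0% a BHLHE40 peak and 92.6% an H3K27ac peak in theirs. The median window of the 10 genes held 3.5 GATA3, 5 BHLHE40 and 14.5 H3K27ac peaks, against 2, 2 and 8 over all genes. The CD40LG and FASLG windows together held 29 of the 52 GATA3 peaks and 34 of the 68 BHLHE40 peaks, but 50 of the 146 H3K27ac peaks. By role, the 4 ligands had 34 GATA3, 41 BHLHE40 and 82 H3K27ac peaks, and the 6 receptors had 18, 27 and 64. The plot of counts by gene shows this imbalance.

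**Figure D1:**
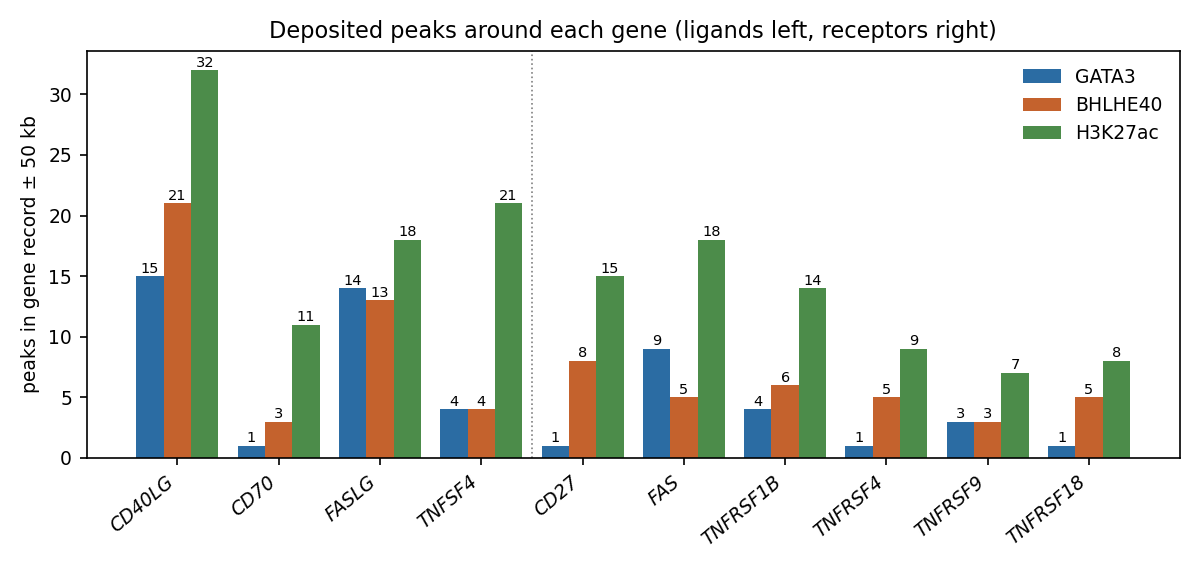
Number of deposited peaks (y axis) of GATA3, BHLHE40 and H3K27ac in the window of each gene, with the 4 ligands left of the dotted line and the 6 receptors right of it. CD40LG has 15 GATA3 and 21 BHLHE40 peaks and FASLG 14 and 13, while CD70, CD27, TNFRSF4 and TNFRSF18 have 1 GATA3 peak each.

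CD40LG, the ligand by which activated helper T cells signal to CD40 on B cells, had the densest set of peaks. Its record spans chrX:136648158-136660390, and its window held 15 GATA3, 21 BHLHE40 and 32 H3K27ac peaks. As many GATA3 peaks or more were found in 0.599% of protein-coding gene windows, as many BHLHE40 peaks in 0.0848% and as many H3K27ac peaks in 1.63%. GATA3 peaks covered 12.5% of its 112 kb. Of the 15 GATA3 peaks, 13 overlapped a BHLHE40 peak and 12 overlapped both a BHLHE40 and an H3K27ac peak. A count of 12 such three-way places or more was found in 0.0848% of all genes. That count and share took H3K27ac peaks of any q-value. Some of the 12 places overlapped only H3K27ac peaks with a −log10 q under 5, and at the weakest place none was above 3.55. The 15 GATA3 peaks lay on both sides of the gene, with 9 below the record in coordinates, 1 inside it and 5 above it. All 5 above it had their summit inside the neighbouring gene ARHGEF6.

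The strongest GATA3 peak of all 10 windows was at CD40LG, at chrX:136628836-136630209. It ranked 366 of 29009 by its signal value of 88.6. Its summit lay 18860 bp below the record and 63 bp from a BHLHE40 summit with a signal value of 20.3. Nearer the gene, BHLHE40 was strongest in this window at chrX:136646431-136647310, with a signal value of 35.5 and rank 904 of 26205. Its summit was 1343 bp below the record and 43 bp from the summit of a GATA3 peak at chrX:136646424-136647635 (signal value 27.5). An H3K27ac peak at chrX:136646306-136647468 covered the same place, with a signal value of 3.70 and a −log10 q of 20.0. A further shared place inside the gene joined a BHLHE40 peak at chrX:136657989-136658680 of signal value 22.5 to a GATA3 peak of 8.10, with summits 31 bp apart. Acetylation around CD40LG was spread over many peaks of low signal value. The 32 H3K27ac peaks had a median signal value of 2.61, and 17 of them reached a −log10 q of at least 5. The highest signal value, at chrX:136694223-136694925 inside ARHGEF6, was 4.58. CD40LG was the one gene of the 10 with no H3K27ac peak among the strongest 10% of the list, which began at 5.41.

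FASLG, the death ligand that activated T cells use to kill FAS-bearing cells, came next. Its record spans chr1:172659103-172666876 and its window held 14 GATA3, 13 BHLHE40 and 18 H3K27ac peaks. As many or more were found in 0.763%, 0.813% and 11.8% of all genes. BHLHE40 overlapped 10 of the GATA3 peaks, and 9 formed three-way places, a count that 0.339% of genes reached. Here too H3K27ac peaks of any q-value were taken, and at the weakest place the −log10 q was 1.82. The peak counts of FASLG were thus rarer among all genes for both factors than for H3K27ac.

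None of the strong places of FASLG lay at its promoter. The strongest GATA3 peak, at chr1:172707910-172709028, ranked 767 by its signal value of 67.4, and the summit was 41781 bp above the record and 17 bp from a BHLHE40 summit of signal value 32.2. BHLHE40 was strongest on the other side, at chr1:172646789-172647779, with a signal value of 44.0 and rank 514. That summit was 11746 bp before the gene start and 14 bp from a GATA3 summit of signal value 13.9. A wide GATA3 peak at chr1:172697456-172699941, with a signal value of 50.3, spanned 2 BHLHE40 peaks. H3K27ac was strongest at chr1:172638278-172639842, 19761 bp before the start at its summit, with a signal value of 9.32, rank 3112 of 113570 and a −log10 q of 73.0. Both factors also had peaks there, with signal values of 27.1 for GATA3 and 16.9 for BHLHE40. Inside the gene, a place shared by all 3 lists had its GATA3 summit 3833 bp past the start. At the promoter itself there was a BHLHE40 peak at chr1:172658785-172659163 of signal value 8.48, below the list's median, with neither GATA3 nor H3K27ac.

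**Figure D2:**
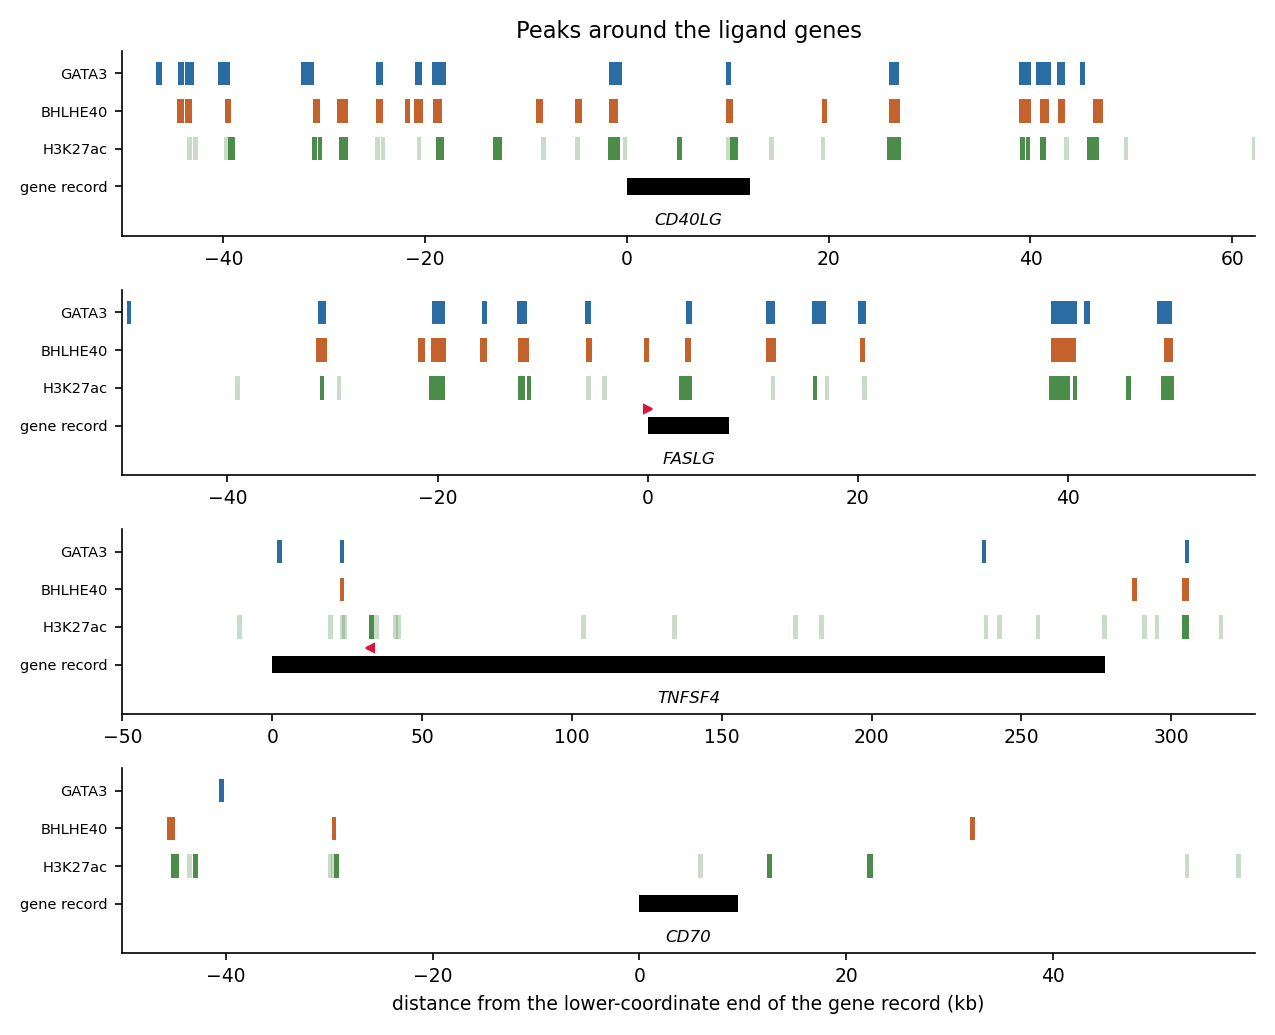
Peaks of the 3 lists around the 4 ligand genes, by distance in kb from the lower-coordinate end of the gene record (black bar). Short peaks are drawn at a minimum width so that they can be seen, pale green marks H3K27ac peaks with a −log10 q under 5, and the red triangle marks the start and direction of genes in the promoter table. GATA3 and BHLHE40 peaks stand above each other on both sides of CD40LG and FASLG, while CD70 has 1 GATA3 peak and TNFSF4 has 4 over a much longer record.

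TNFSF4, the OX40 ligand, had few BHLHE40 peaks for its size. Its record, chr1:173172870-173450733, is the longest of the 10, and its window of 378 kb held 4 GATA3, 4 BHLHE40 and 21 H3K27ac peaks. Counts as high were reached by 23.2%, 33.8% and 7.01% of genes. Per 100 kb there were 1.06 GATA3 peaks, against 13.4 at CD40LG and 13.0 at FASLG. CD70, CD27, TNFRSF18 and TNFRSF4 had fewer, from 0.913 to 0.973. For BHLHE40 the value was also 1.06, the lowest of the 10 genes. A −log10 q of at least 5 was reached by 3 of the 21 H3K27ac peaks. The strongest GATA3 peak, at chr1:173195356-173196510, ranked 3495 by its signal value of 30.4, and the summit lay 9423 bp past the gene start inside the record. It overlapped the strongest BHLHE40 peak, at chr1:173195408-173196225 with a signal value of 12.5, although the summits were 367 bp apart. The promoter had an H3K27ac peak at chr1:173205242-173206253 (signal value 4.54, −log10 q 11.1) and no factor peak. The highest H3K27ac peak of the window was at chr1:173476345-173477145 with a signal value of 12.0. It lay 404 bp from the lower-coordinate end of another gene record, PRDX6.

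CD70, the ligand of CD27, was the barest of the ligands. Around its record at chr19:6581648-6591150 there were 1 GATA3, 3 BHLHE40 and 11 H3K27ac peaks, counts that 76.1%, 47.6% and 38.8% of all genes reached. It was the one gene of the 10 without a place shared by both factors. The single GATA3 peak, at chr19:6541026-6541356, had a signal value of 9.10, below the list's median, and lay 40444 bp from the record. The strongest BHLHE40 peak was at chr19:6551893-6552306 with a signal value of 9.95. H3K27ac was highest at chr19:6536364-6537133 (signal value 10.1), 687 bp from the record of TNFSF9, another ligand of the family, and inside neither gene. No peak lay within 1 kb of either end of the CD70 record.

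Among the receptors, FAS had the most GATA3 peaks. FAS carries a death domain and triggers apoptosis when bound by its ligand. Its record is chr10:88964050-89017059, and the window held 9 GATA3, 5 BHLHE40 and 18 H3K27ac peaks, counts reached by 3.11%, 23.3% and 11.8% of genes. All 5 BHLHE40 peaks overlapped GATA3. The strongest GATA3 peak lay inside the gene, at chr10:89003055-89003940, with a signal value of 53.4 and rank 1294. Its summit was 12091 bp past the nearest of its starts in the promoter table and 15 bp from a BHLHE40 summit of signal value 10.2. That place overlapped H3K27ac only weakly, at a −log10 q of 3.07. The strongest BHLHE40 peak, at chr10:88986360-88987786 with a signal value of 13.2, lay where the records of FAS and ACTA2 overlap. At the FAS promoter a BHLHE40 peak at chr10:88990367-88992465 (signal value 9.70) met the strongest H3K27ac peak of the window, at chr10:88990375-88992009 (signal value 5.82, −log10 q 39.4). FAS was the one gene of the 10 whose strongest H3K27ac peak lay at its own promoter.

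CD27, a costimulatory receptor of T cells bound by CD70, had BHLHE40 and H3K27ac peaks but hardly any GATA3. The window around chr12:6443892-6451713 held 1 GATA3, 8 BHLHE40 and 15 H3K27ac peaks, counts reached by 76.1%, 6.79% and 20.1% of genes. All 8 BHLHE40 peaks overlapped H3K27ac. A BHLHE40 peak at chr12:6443396-6443895, of signal value 11.7 with the summit 202 bp before the start, covered the promoter sequence shown, beside an H3K27ac peak at chr12:6443860-6444461 of signal value 3.02. Higher values lay at neighbouring genes. H3K27ac was highest at chr12:6451336-6452667, with a signal value of 12.2 and a summit 63 bp past the CD27 record and inside TAPBPL. The only GATA3 peak, at chr12:6493028-6494818, and the strongest BHLHE40 peak, at chr12:6492994-6494846, had signal values of 9.89 and 21.8. They overlapped each other more than 41 kb away, with summits 837 bp apart. The place lay near the lower-coordinate end of NCAPD2 and the upper-coordinate end of MRPL51.

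TNFRSF1B, the second TNF receptor, which lacks a death domain and is prominent on activated and regulatory T cells, had its strongest factor peaks just beyond the gene. Its record is chr1:12166991-12209220, and the window held 4 GATA3, 6 BHLHE40 and 14 H3K27ac peaks. BHLHE40 was strongest at chr1:12210245-12211108, where its signal value of 37.8 ranked 761. The summit lay 1471 bp above the record. The strongest GATA3 peak shared this place, at chr1:12210457-12210978 with a signal value of 23.6 and summits 20 bp apart. An H3K27ac peak of signal value 7.59 overlapped it. The 2 BHLHE40 peaks inside the gene, with signal values of 16.1 and 17.8, overlapped H3K27ac but not GATA3. The promoter had no peak of any list. The highest H3K27ac peak, at chr1:12229963-12230546 with 8.94, lay 193 bp from the lower-coordinate end of the VPS13D record.

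TNFRSF4 and TNFRSF18, the costimulatory receptors OX40 and GITR, shared nearly all of their peaks. The TNFRSF4 record is chr1:1211340-1214153 and that of TNFRSF18 is chr1:1203508-1206592. Their windows held 1 GATA3 and 5 BHLHE40 peaks each, the same ones, and 9 and 8 H3K27ac peaks. The strongest BHLHE40 peak of all 10 windows was here, at chr1:1200816-1201794, with a signal value of 45.3 and rank 479 of 26205. Its summit lay 5008 bp past the start of TNFRSF18, 1924 bp beyond the record, and 9756 bp from TNFRSF4. The GATA3 summit was 3 bp away, but that peak, at chr1:1201385-1201743, was weak with a signal value of 7.46 and rank 23417 of 29009. A second BHLHE40 peak, at chr1:1212703-1213859 with 7.61, lay within the TNFRSF4 record, 577 bp from its upper end at the summit, beside an H3K27ac peak at chr1:1212882-1213267 whose −log10 q was 4.26. The highest H3K27ac peak, at chr1:1230998-1232057 with 11.5, was 215 bp from the upper-coordinate end of the SDF4 record.

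TNFRSF9, also called CD137 and a costimulatory receptor induced on activated T cells, had the fewest H3K27ac peaks. Around chr1:7915871-7940839 there were 3 GATA3, 3 BHLHE40 and 7 H3K27ac peaks, counts that 36.3%, 47.6% and 61.3% of genes reached, and 1 of the 7 reached a −log10 q of 5. The strongest GATA3 peak, at chr1:7915650-7916185 with a signal value of 10.8, lay at the end of the record away from the promoter. A BHLHE40 peak at chr1:7915739-7916201 (signal value 6.99) had its summit 51 bp from it. The strongest BHLHE40 peak was at chr1:7961035-7962139 with 17.7, and the highest H3K27ac peak at chr1:7961018-7962226 with 10.6. Both lay within 1 kb of the lower-coordinate end of the PARK7 record. The TNFRSF9 promoter had no peak.

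**Figure D3:**
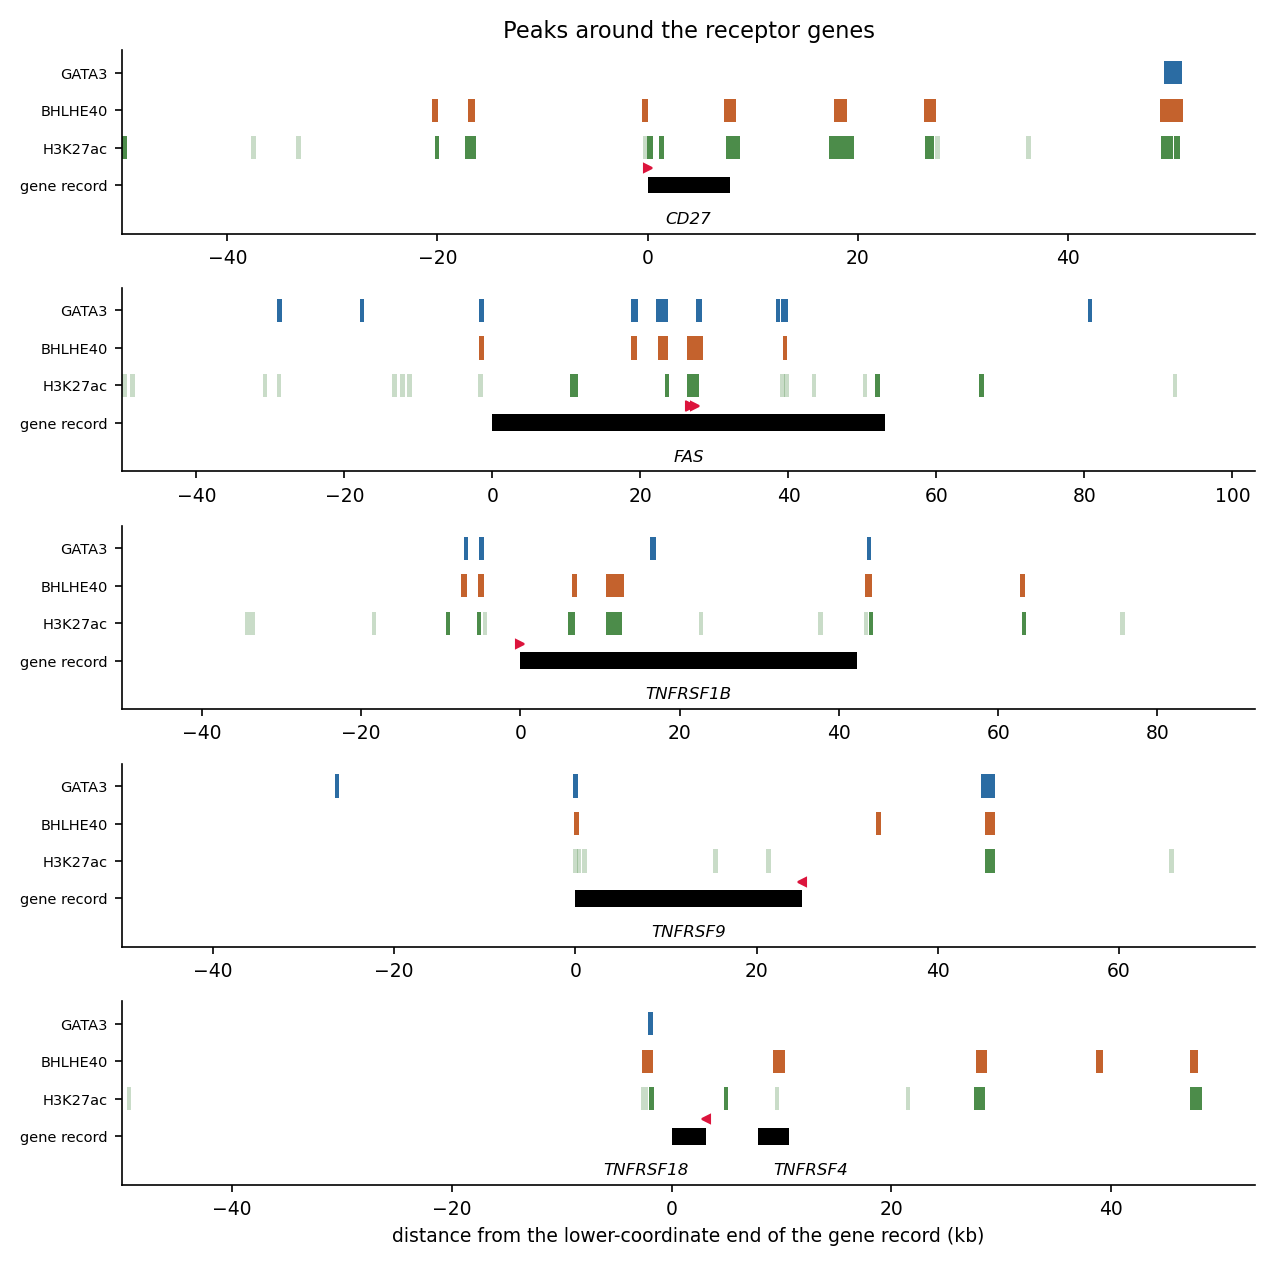
Peaks of the 3 lists around the 6 receptor genes, drawn as for the ligands, with TNFRSF18 and TNFRSF4 on 1 axis. Within the FAS record all 4 BHLHE40 peaks overlap a GATA3 peak, whereas 7 of the 8 BHLHE40 peaks around CD27 have no GATA3 peak with them.

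Promoter peaks of BHLHE40 and H3K27ac were about as common as in other genes. A BHLHE40 peak was at the promoter of 5 of the 10 genes (CD40LG, FASLG, CD27, FAS and TNFRSF4), against 45.4% of all protein-coding genes. H3K27ac was there in 5 (CD40LG, TNFSF4, CD27, FAS and TNFRSF4), against 50.6%, and with a −log10 q of at least 5 in 4, against 45.6%. GATA3 was there in 1, CD40LG, against 19.7%. For CD40LG, CD70 and TNFRSF4 the promoter was 1 kb around either end of the record, against 300 bases for genes with an entry. A peak farther from the start or at the far end of the gene counts as well. At CD40LG the GATA3 and BHLHE40 summits concerned lay 1300 and 1343 bp below the record. CD70, TNFRSF1B, TNFRSF9 and TNFRSF18 had no promoter peak in any of the lists.

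Strong peaks were split unevenly among the genes. A GATA3 peak among the strongest 10% of its list was in the windows of 3 genes (CD40LG, FASLG and FAS), against 17.9% of all genes. For BHLHE40 there were 5 (CD40LG, FASLG, TNFRSF1B, TNFRSF4 and TNFRSF18, the last pair through 1 peak), against 21.9%, and for H3K27ac 9, against 68.7%. In 8 of the 10 windows the strongest GATA3 peak lay neither at the gene's promoter nor within 1 kb of the end of any protein-coding record, against 73.8% of all genes with a GATA3 peak. For BHLHE40 this held in 7 windows, against 43.9%, and for both factors TNFRSF4 and TNFRSF18 counted through 1 peak. The strongest H3K27ac peak was within 1 kb of a record end that was not the gene's own promoter in 7 of the 10 windows, at 6 distinct places, against 37.0%. Peaks at such record ends lie in the window by position, and whether they bear on the listed gene was not tested. The records carry no strand, so a record end can be where a gene starts or where it stops.

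**Figure D4:**
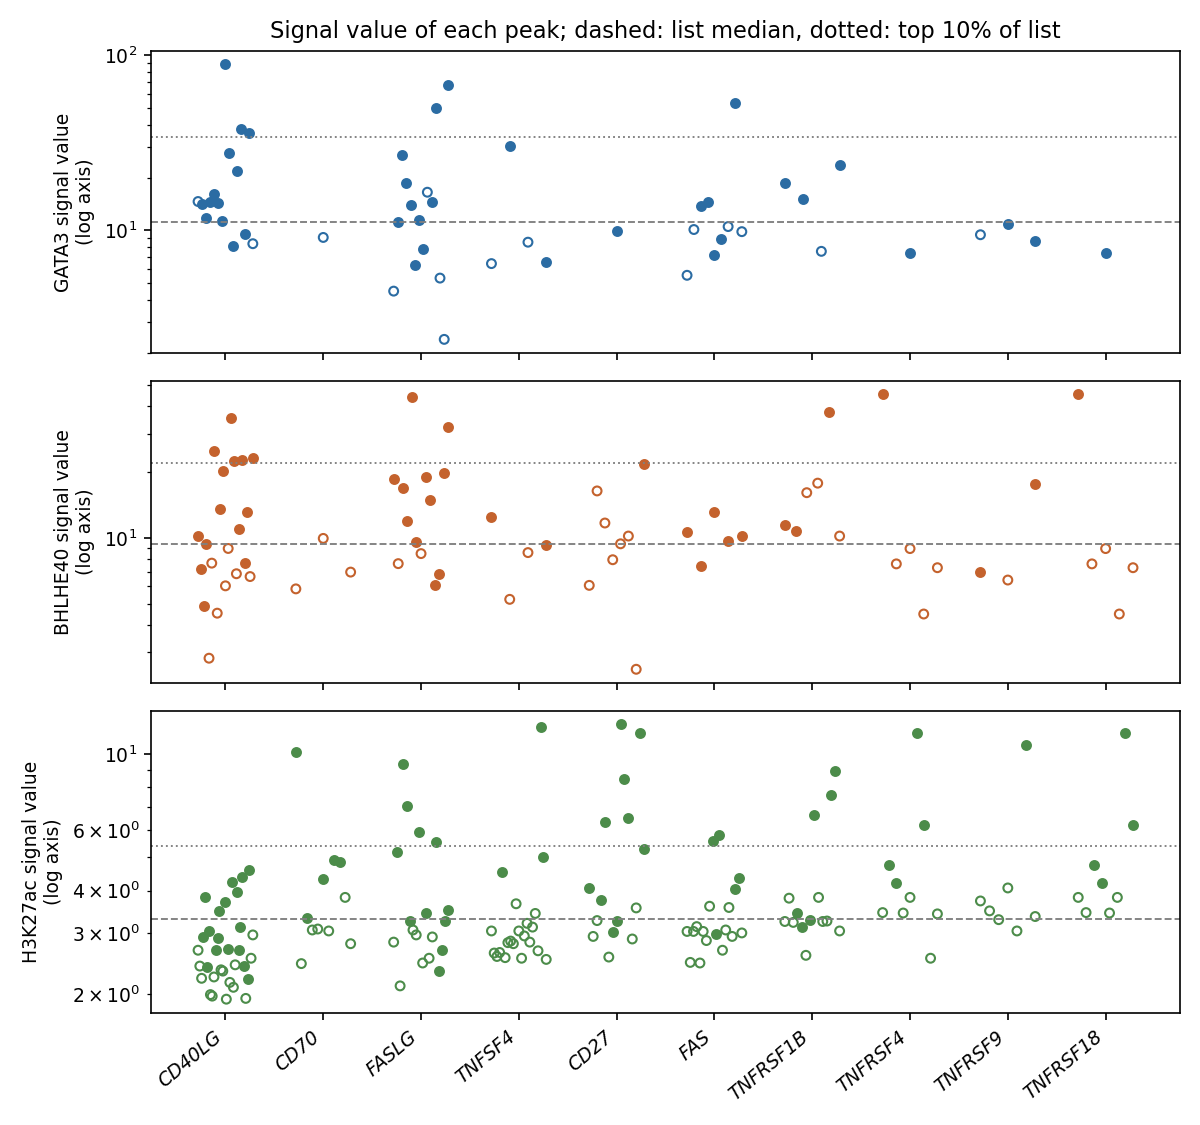
Signal value of each peak (log y axis) in each gene's window, in order of position, for the 3 lists. Filled points are factor peaks that overlap the other factor, or H3K27ac peaks whose −log10 q is 5 or more. The dashed line is the list's median and the dotted line the start of its strongest 10%. All 6 GATA3 points above the dotted line, at CD40LG, FASLG and FAS, are filled.

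Most GATA3 peaks in these windows overlapped a BHLHE40 peak. Of the 52 distinct GATA3 peaks, 37 overlapped BHLHE40, a share of 71.2% (95% Wilson interval 57.7% to 81.7%, counting error only), against 48.7% of the whole list. Of the 68 BHLHE40 peaks, 39 overlapped GATA3, or 57.4% (interval 45.5% to 68.4%), against 53.0%, a share inside the interval. H3K27ac overlapped 67.3% of the GATA3 peaks (interval 53.8% to 78.5%) and 83.8% of the BHLHE40 peaks (interval 73.3% to 90.7%), against 49.1% and 76.4% in the lists. With H3K27ac peaks held to a −log10 q of at least 5 the shares were 44.2% and 61.8%, against 33.4% and 60.2%. Neighbouring peaks are not independent, so the intervals are too narrow, and 23 of the 37 shared GATA3 peaks came from CD40LG and FASLG. Without those 2 windows, 14 of 23 GATA3 peaks and 14 of 34 BHLHE40 peaks overlapped the other factor. The summits of shared peaks were a median of 29.0 bp apart (95% interval of the median from order statistics 19 to 51 bp, 37 peaks), against 35.0 bp in the whole list. GATA3 peaks that overlapped BHLHE40 had a median signal value of 14.3, and those that did not had 8.55, against 13.9 and 10.1 in the whole list. For BHLHE40 the same medians were 13.1 and 7.63, against 11.4 and 7.96. A place with all 3 lists was in 9 of the 10 windows, against 55.2% of all genes. TNFRSF4 and TNFRSF18 counted through 1 place that they share. With factor peaks held to an irreproducible discovery rate of at most 0.01, such a place was in 7 windows. The share of all genes at that rate was not computed. Among other family genes examined, 10 of 14 ligands, 16 of 23 receptors and 10 of 13 intracellular signalling genes had a place with all 3 lists. So did 10 of 10 T-cell, 2 of 5 B-cell, 3 of 5 myeloid and 0 of 4 erythroid markers. In 5 of the 10 genes (CD40LG, FAS, FASLG, TNFRSF9 and TNFSF4) such a place had its GATA3 summit inside the gene record, against 22.0%. At TNFRSF9 and TNFSF4 the H3K27ac peaks there had a −log10 q of at most 3.71 and 2.03.

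**Figure D5:**
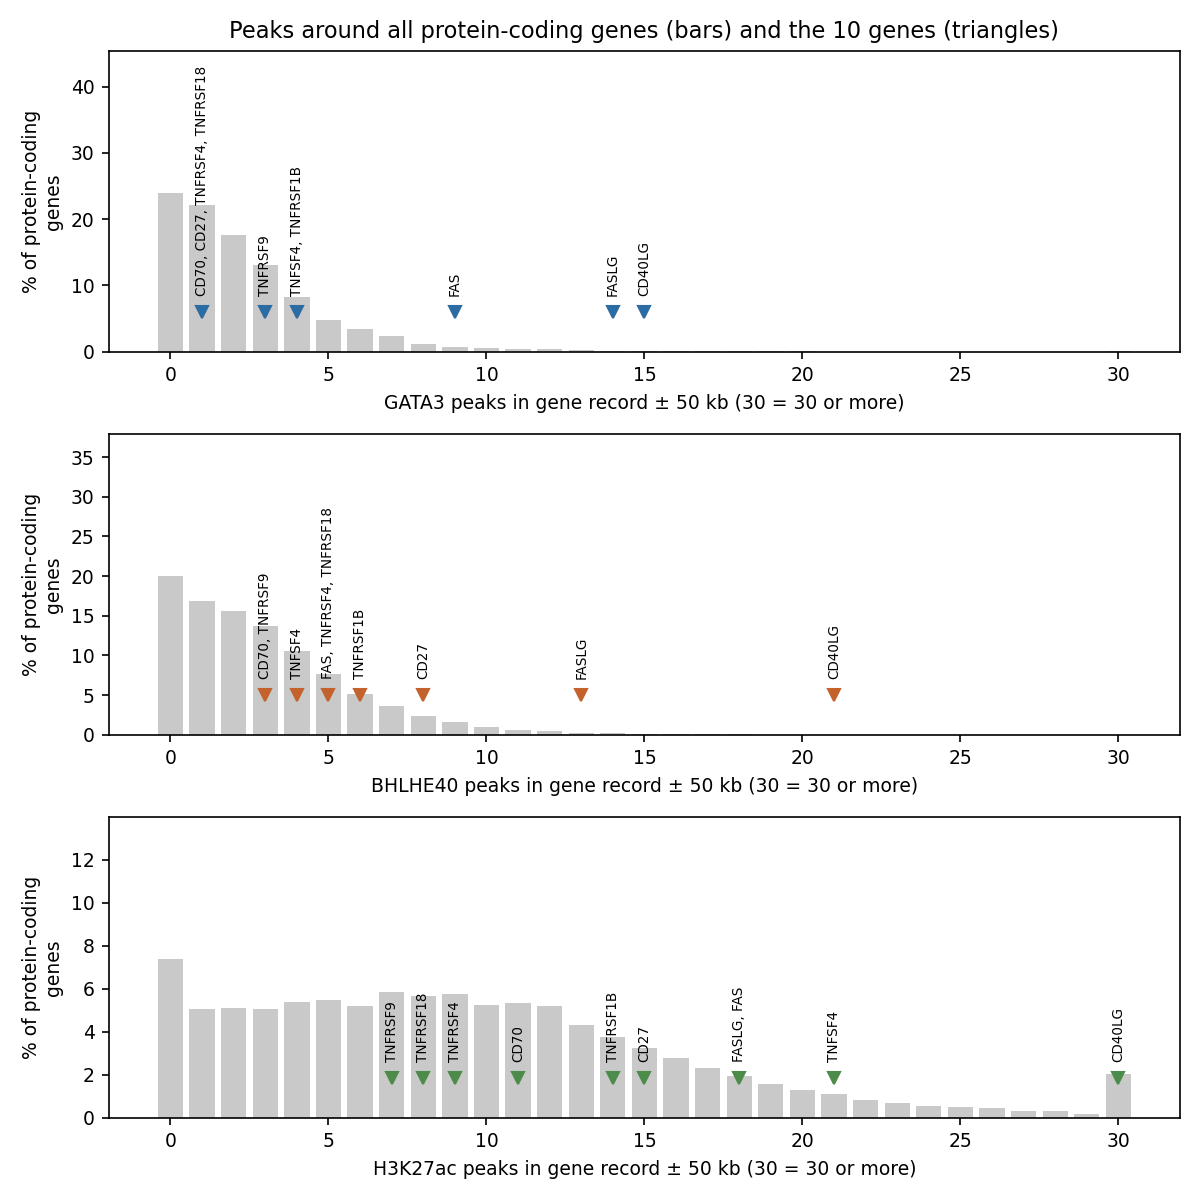
Share of all 20046 protein-coding genes (grey bars, % on the y axis) by the number of GATA3, BHLHE40 or H3K27ac peaks in their window, with the last bar holding genes with 30 or more, and the 10 genes marked by triangles whose height has no meaning. CD40LG and FASLG lie in the far tail for both factors, and 8 BHLHE40 peaks at CD27 and 9 GATA3 peaks at FAS are the next highest.

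Other genes of the family were examined in the same way. Among 14 other ligands, 2 had a GATA3, 2 a BHLHE40 and 4 an H3K27ac peak at the promoter. The shares of all protein-coding genes with such a promoter peak were 19.7%, 45.4% and 50.6%. The ligands with H3K27ac there were LTA, TNFSF8, TNFSF9 and TNFSF10, TNFSF8 being the one with all 3 lists, and TNFSF14 had BHLHE40 alone. Among 23 other receptors the counts were 2, 6 and 12. TNFRSF21 and RELT had all 3 lists, and TNFRSF10B, TNFRSF12A, TNFRSF13C and TNFRSF19 had BHLHE40 with H3K27ac. TNFRSF1A, TNFRSF6B, TNFRSF8, TNFRSF11B, TNFRSF14 and TNFRSF17 had H3K27ac alone. At a −log10 q of at least 5 the H3K27ac count of these receptors was 7, without TNFRSF6B, TNFRSF8, TNFRSF12A, TNFRSF13C and TNFRSF17. For 13 genes that carry the signal inside the cell, such as TRAF adaptors and death-domain proteins, the counts were 6, 11 and 12. CASP8, CFLAR, FADD, BIRC2, BIRC3 and NFKBIA had all 3 lists at the promoter. TRAF1, TRAF2, TRAF6, TRADD and RIPK1 had BHLHE40 with H3K27ac, and TRAF5 had H3K27ac alone. For ligands and signalling genes the H3K27ac counts at a −log10 q of at least 5 stayed at 4 and 12. The share of all protein-coding genes at this cut was 45.6%. No other ligand or receptor reached the factor counts of CD40LG: the highest were 11 GATA3 peaks, at TNFSF8, and 9 BHLHE40 peaks. TNFSF9 lies in the CD70 window and TNFRSF8 in that of TNFRSF1B, and TNF, LTA and LTB neighbour each other, so these genes share part of their windows.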

How the data were processed

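ChIP-seq of stimulated Jurkat cells with a control lentivirus was read from 3 deposited narrowPeak lists, grouped by sample title, for GATA3, BHLHE40 and H3K27ac. Per the submitters' processing notes, the build was hg38 and bcl2fastq 2.20 and MACS2 were used. The aligner, the MACS2 version and the use of input are not given in the sources used here. Each list covers both samples of its group: the deposited factor lists were filtered at an irreproducible discovery rate of 0.05, and the H3K27ac list was pooled. In each list the signal value, the −log10 q-value and the score are the authors' deposited values, and what the signal is relative to is not stated. The score of the deposited factor lists ran from 540 to 1000, and 830 corresponds to a rate of 0.01. Peaks were ranked by signal value within their list.

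Gene records came from RefSeq (GRCh38.p14), 1-based, without strand or exons, so exons, introns and UTRs are not told apart. Overlap was at least 1 bp. The promoter was 250 bases before to 50 after each start in RefSeq's promoter table, or 1 kb around either record end for genes without an entry, and all 20046 protein-coding genes were treated alike. A peak is placed by its summit, below or above the record in coordinates. All 10 genes were described, each with the strongest peak per list, every promoter peak, and shared places. Other family genes were named where a peak lay on their promoter or they lay in a window. The genes and lists were chosen with earlier results of these data known. At the edges, the farthest peaks inside the windows lay 1.55 to 50.2 kb from the record and the nearest outside 50.2 to 224 kb. Intervals of shares are 95% Wilson intervals. No test was run. Scripts ran in Python 3.11.15 with scipy 1.17.1, pandas 2.3.3, numpy 2.4.6 and matplotlib 3.10.9, and the overlap functions were tested on simulated data. Alternatives were a stricter rate, H3K27ac peaks with a −log10 q of at least 5, flanks of 0, 20 and 100 kb, other definitions of overlap and promoter, and, chosen after seeing the data, omission of the CD40LG and FASLG windows.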

Additional observations from a re-analysis of the deposited data

How the results depend on the processing

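Across 12 results and 54 alternatives, of which 8 were chosen after seeing the data, 37 values stayed within 1.5 times the reported count or inside the 95% interval of the reported share or median, and 17 moved. A count that stayed can rest on other genes. Counts of peaks followed the flank. With 0, 20 and 100 kb the GATA3 count was 12, 29 and 81 and the H3K27ac count 40, 88 and 244, while BHLHE40 gave 14 and 38 with 0 and 20 kb. With 0 kb, 5 genes had a place with all 3 lists, at TNFRSF9 and TNFSF4 only with H3K27ac peaks whose −log10 q was under 5. Leaving out the windows of CD40LG and FASLG gave 23 GATA3, 34 BHLHE40 and 96 H3K27ac peaks, and the share of BHLHE40 peaks that overlapped GATA3 was then 41.2%, below the 53.0% of the whole list. Keeping H3K27ac peaks with a −log10 q of at least 5 left 62 of them, which overlapped 44.2% of GATA3 and 61.8% of BHLHE40 peaks, against 33.4% and 60.2% of the whole lists. A promoter widened to 1 kb on each side gave GATA3 at 2 genes, CD40LG and FAS. With the summit required there, the count was 1, but the gene was FAS and not CD40LG. No paired analysis was possible because the lists are joint to the 2 samples of a group, without values for each, and for that reason no replicate could be left out. Depth is unknown, so a gene with few peaks cannot be told apart from a gene whose peaks were too weak to be listed.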
